A study of Homo sapiens with 9 samples.

Results

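The genes described are 7 members of the ADP-ribosyltransferase system: the complex of PARP9 and DTX3L, the antiviral enzymes PARP14, PARP10 and PARP12, and the DNA damage enzymes PARP1 and PARP2. They were chosen by name from the 58735 genes of the OVCAR4 count table, and all 7 were found and passed the filter on low counts. Messenger RNA was measured by RNA-seq in 9 libraries of OVCAR4, an established human line labelled as ovarian serous adenocarcinoma with a wild-type genotype. Of these, 3 libraries came from cells transduced with the scr control vector, 3 from cells with shMPZL3 #1 and 3 from cells with shMPZL3 #2. All cells had received a pLKO.1 lentivirus and puromycin, controls included, and the comparisons ask how transcripts differ when MPZL3, an immunoglobulin-like membrane protein gene, is lowered by short hairpin RNA.

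ADP-ribosyltransferases move ADP-ribose from NAD onto proteins or nucleic acids. PARP1 and PARP2 are switched on by DNA breaks and build chains of ADP-ribose that recruit repair proteins, whereas PARP10, PARP12 and PARP14 attach single units, and their genes respond to interferon in many cell types. PARP9 works with DTX3L, a ubiquitin ligase of the Deltex family, and the genes of this pair stand head to head. Type I interferon acts through the kinases JAK1 and TYK2, and the transcription factor complex that then forms, with STAT2 and IRF9 in it, binds a DNA element called the ISRE.

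On chromosome 3 (GRCh38), PARP9 is read from the minus strand, between 122527924 and 122564577, and DTX3L from the plus strand, between 122564238 and 122575203, so that the gene bodies shared 340 bases. PARP14 followed on the plus strand from 122680618 to 122730840, and the 3 genes together spanned 202.9 kb. Away from this locus lay PARP12 on chromosome 7 from 140023744 to 140063721, PARP1 on chromosome 1 from 226360691 to 226408079 and PARP2 on chromosome 14 from 20343582 to 20357905.

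RefSeq windows of 250 bases before to 50 bases after a transcript start (GRCh38.p14) were at hand for 6 members, and PARP10 is named only. The core of the ISRE, spelled GAAANNGAAA or TTTCNNTTTC on the other strand, was found for 4 of these 6 genes, PARP9, DTX3L, PARP14 and PARP12, and for neither PARP1 nor PARP2. Of all 35116 windows, 3.57% held it. The matches are shown because they sit at the starts of members whose levels are described next. Each is written 5′ to 3′ on the strand of its gene, with the match in capitals and 10 bases on either side.
PARP9: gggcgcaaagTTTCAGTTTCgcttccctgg
DTX3L: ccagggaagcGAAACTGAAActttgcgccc
PARP14: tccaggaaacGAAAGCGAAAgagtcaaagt
PARP12: ccggggccgcTTTCGGTTTCgtttcccgcc
The PARP9 and DTX3L lines are the same bases read on opposite strands, chr3:122564322-122564351, and so are 1 match, not 2. It began at position -6 relative to the RefSeq start of DTX3L, at 122564338. Relative to the RefSeq start of PARP9, at 122564300, it began at -41. These starts and those of PARP14 and PARP12 below lie inside the gene bodies given above. PARP9 had another window, chr3:122564735-122565034, outside its gene body given above, with 0 matches. The PARP14 stretch was chr3:122680800-122680829, with the match beginning at -29 from the RefSeq start at 122680839. The PARP12 stretch was chr7:140062942-140062971, with the match beginning at -10 from the RefSeq start at 140062951. The GAS core, TTCNNNGAA, which reads the same on both strands and is an element of genes that respond to interferon gamma, was in the windows of PARP14 and PARP2 and in 7.66% of all windows. Neither match overlapped an ISRE core. None of the 9 other ADP-ribosyltransferase genes with a window held the ISRE core. Of 13 interferon signalling genes with a window, 1 held it, SOCS1. Of 9 interferon ligand genes, whose counts were at or near 0, 4 held it. These are letter matches and not measured binding.

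Total counts were 15040102 to 27835841 per library. MPZL3 checked the labels: it measured 26.1, 29.8 and 28.6 CPM (counts relative to library size, scaled by the TMM method of edgeR) in scr, 5.79, 6.97 and 5.99 in shMPZL3 #1, and 13.9, 18.5 and 13.2 in shMPZL3 #2, so every knockdown library was below every control. The epithelial and Mullerian markers were high except WT1, at 3 to 13 counts per library, and their summed level was 3836 to 4204 CPM in scr and 3818 to 4700 CPM with knockdown. Within that sum CDH1 measured 256 ± 11.9 CPM in scr, 340 ± 13.3 in shMPZL3 #1 and 291 ± 16.5 in shMPZL3 #2 (SD, n = 3), and MUC16 measured 375 ± 39.8, 246 ± 71.6 and 317 ± 41.5. The 5 immune markers summed to 2.01 to 2.53 CPM in scr, 2.10 to 3.05 in shMPZL3 #1 and 2.81 to 4.69 in shMPZL3 #2, with CD3E and LYZ at 0 in all control libraries and CD14 at 0.36 ± 0.18, 1.17 ± 0.35 and 1.1 ± 0.15 CPM in scr and the 2 hairpins. The 6 fibroblast and endothelial markers summed to 21.0 to 25.1 CPM in scr, 39.9 to 56.8 in shMPZL3 #1 and 35.9 to 39.6 in shMPZL3 #2, from COL1A1 and LUM above all, with DCN at 0 in all 9 libraries. Their part in the results was not tested. In RNA from whole cultures, a change in the share of cells and a change in RNA per cell cannot be told apart.

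The 5 interferon-linked members were higher with either shRNA, by 2.04-fold to 3.34-fold, and PARP1 and PARP2 were lower with shMPZL3 #1. With both shRNAs taken as 1 condition, 5 of the 7 members were called higher at an adjusted p under 0.05 in edgeR's quasi-likelihood test (6 against 3 libraries), where 9.36% of the 16928 genes tested were, and 0 of 7 were called lower, where 6.40% were. PARP1 and PARP2 were the 2 members lower at an unadjusted p under 0.05 in edgeR, and DESeq2 called 0 lower. For all of these 5, the 6 knockdown libraries lay above the 3 control libraries, which was so for 11.8% of genes, and PARP1 lay below in all 6, as did 11.0% of genes. The median log2 fold change of the 7 members was 1.22, against 0.02 over all genes. The comparisons share the same 3 scr libraries.

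**Figure D1:**
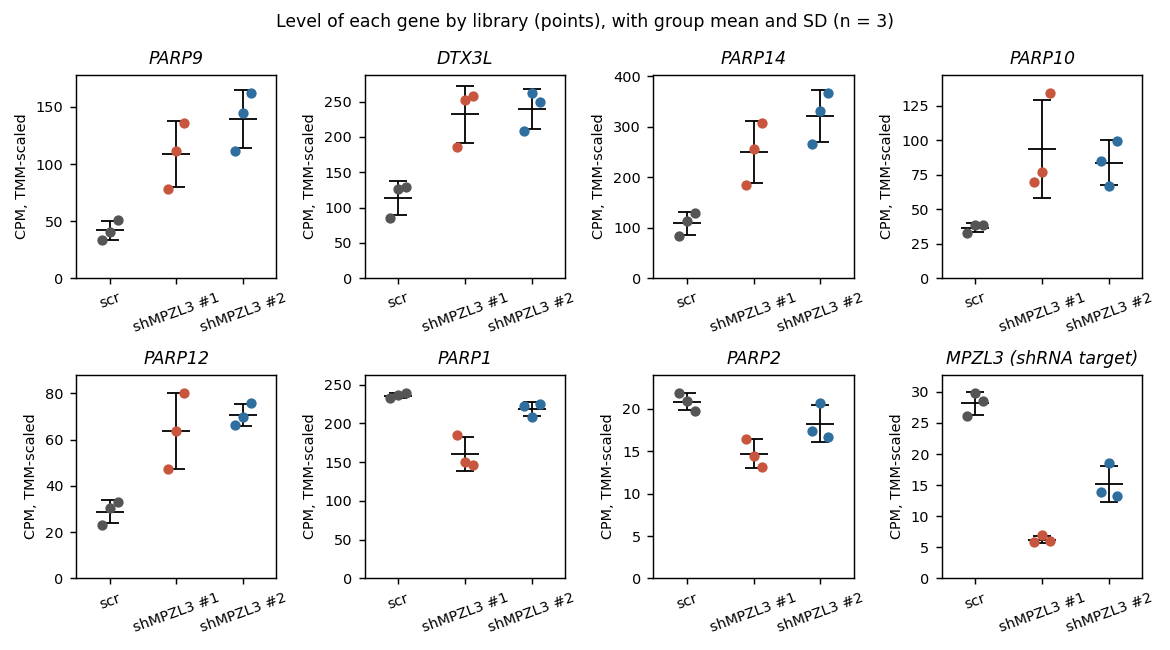
Level of each member and of MPZL3, in TMM-scaled CPM (vertical axes, from 0), in the 9 libraries by group. Points are libraries, long bars the mean and whiskers the SD (n = 3). All knockdown points lie above the scr points for PARP9, DTX3L, PARP14, PARP10 and PARP12, and below them for PARP1.

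PARP9, which carries macrodomains that bind ADP-ribose, measured 33.7, 40.8 and 50.9 CPM in the scr libraries. It reached 78.0, 112 and 136 CPM with shMPZL3 #1 and 112, 144 and 162 CPM with shMPZL3 #2. The highest control lay well below the lowest knockdown library, and the 2 hairpins overlapped each other. The rise was 2.97-fold over both shRNAs, a log2 fold change of 1.57 ± 0.21 (SE, adjusted p = 0.000647, edgeR), and was 1.38 ± 0.19 with shMPZL3 #1 (adjusted p = 5.09e-05) and 1.74 ± 0.19 with shMPZL3 #2 (adjusted p = 1.06e-05). It was the largest of the 7.

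DTX3L, the ligase partner, measured 85.5, 126 and 129 CPM in scr, 185, 253 and 258 CPM with shMPZL3 #1, and 208, 262 and 250 CPM with shMPZL3 #2. The groups of knockdown and control did not overlap, and the lowest control library was scr replicate 1. DTX3L rose 2.08-fold, by 1.06 ± 0.15 on the log2 scale (adjusted p = 0.00104, edgeR), and the hairpins gave nearly the same value, 1.03 ± 0.15 and 1.08 ± 0.15. Because the libraries hold no strand, reads from the 340 bases that PARP9 and DTX3L share cannot be assigned to one of them.

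The third gene of the locus, PARP14, a transferase linked to macrophage and antiviral signalling, measured 83.4, 114 and 129 CPM in scr. Its level was 185, 257 and 306 CPM with shMPZL3 #1 and 266, 330 and 367 CPM with shMPZL3 #2. Again all knockdown libraries were above all controls, and it rose by 1.39 ± 0.20 on the log2 scale (adjusted p = 0.000989, edgeR), or 2.62-fold. Between the hairpins it differed by 0.36 ± 0.17, with an adjusted p of 0.168 that did not pass the test.

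PARP10, a mono-ADP-ribosyltransferase read from the minus strand of chromosome 8 between 143977153 and 144012772, measured 33.0, 38.3 and 38.3 CPM in scr. It was 69.7, 77.0 and 134 CPM with shMPZL3 #1 and 85.0, 66.7 and 99.4 CPM with shMPZL3 #2. The control libraries were close together, while shMPZL3 #1 replicate 3 stood above the other knockdown libraries. The rise was 1.28 ± 0.20 on the log2 scale (adjusted p = 0.00156, edgeR), and the value with each hairpin was 1.36 ± 0.20 and 1.20 ± 0.20. GRINA lies opposite PARP10 over 3358 bases and had 46028 counts in all libraries against 13775 for PARP10, so PARP10 counts may contain reads of GRINA or miss reads that fell on both.

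PARP12, which acts at the Golgi and against viruses, measured 23.2, 30.4 and 32.9 CPM in scr, 47.2, 63.8 and 80.0 CPM with shMPZL3 #1, and 66.3, 69.6 and 76.0 CPM with shMPZL3 #2. Every knockdown library lay above every control. PARP12 rose by 1.22 ± 0.16 on the log2 scale (adjusted p = 0.00068, edgeR). The coefficient of variation over 3 libraries was 17.3% in scr, 25.75% with shMPZL3 #1 and 6.96% with shMPZL3 #2.

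For each of these 5 genes, an exact permutation test of 6 against 3 libraries gave p = 0.0119 (two-sided), the smallest value it can give. This unadjusted value restates that the knockdown libraries lay above the controls, as they did for 11.8% of genes, and takes both hairpins as 1 condition. Each shRNA taken singly called these 5 higher, with shMPZL3 #1, where 16.8% of genes were, and with shMPZL3 #2, where 9.36% were. All 9 alternatives that leave out 1 library kept 5 members called higher in the grouped comparison.

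**Figure D2:**
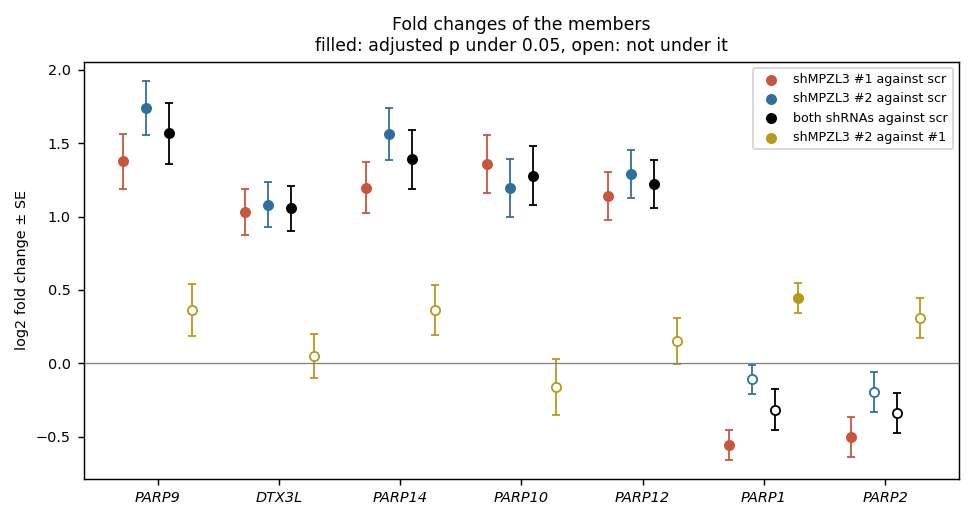
Log2 fold change with its SE (vertical axis) of each member in 4 comparisons from edgeR. Filled points passed an adjusted p under 0.05. The 5 interferon-linked genes lie at 1.03 to 1.74 against scr, and PARP1 and PARP2 lie below 0 with shMPZL3 #1.

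PARP1, the main sensor of DNA breaks, went the other way. It measured 233, 236 and 239 CPM in scr, a spread of 1.25% of the mean, against 185, 150 and 146 CPM with shMPZL3 #1 and 223, 208 and 225 CPM with shMPZL3 #2. The shMPZL3 #1 libraries stood below both other groups, and those of shMPZL3 #2 lay just below the controls. PARP1 fell by 0.56 ± 0.10 on the log2 scale with shMPZL3 #1 (adjusted p = 0.000606, edgeR), and its log2 value was -0.11 ± 0.10 with shMPZL3 #2 (adjusted p = 0.507). The grouped value, -0.32 ± 0.14, did not pass (adjusted p = 0.141).

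PARP2, a smaller relative that also binds breaks, measured 21.8, 20.9 and 19.7 CPM in scr, 16.5, 14.5 and 13.2 CPM with shMPZL3 #1, and 17.4, 20.7 and 16.7 CPM with shMPZL3 #2. The control and shMPZL3 #1 libraries did not overlap, whereas shMPZL3 #2 replicate 2 reached the control range. The log2 fold change was -0.50 ± 0.14 with shMPZL3 #1 (adjusted p = 0.0101, edgeR), which passed, and -0.19 ± 0.14 with shMPZL3 #2 (adjusted p = 0.371). Without shMPZL3 #1 replicate 3 the first value was -0.43 and no longer passed (adjusted p = 0.0502). The 2 members called lower with shMPZL3 #1 stand beside 15.3% of all genes, and 0 members called lower with shMPZL3 #2 beside 5.80%.

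Between the hairpins 1 of the 7 members was called. PARP1 was higher with shMPZL3 #2 than with shMPZL3 #1, by 0.45 ± 0.10 on the log2 scale (adjusted p = 0.00719, edgeR), where 7.56% of genes were called higher and 7.56% lower. The 95% interval of this difference was 0.25 to 0.64, a normal approximation from the SE. For the other members the intervals were -0.25 to 0.35 for DTX3L, -0.16 to 0.46 for PARP12, -0.53 to 0.21 for PARP10, 0.01 to 0.71 for PARP9, 0.03 to 0.70 for PARP14 and 0.04 to 0.58 for PARP2. None of these 6 passed the test, which does not show that the hairpins act alike on them. Among the 7 intervals, more exclude 0 than the 3 members with an unadjusted p under 0.05 in edgeR. The approximation is therefore somewhat too narrow. With no filter on low counts PARP9 and PARP14 were called as well, at 0.36 each (adjusted p = 0.0182 and 0.0139, edgeR), making 3 members.

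Per length of exon, the order of the members changed with knockdown. The length used was that of all annotated exons of a gene merged, not of the transcripts expressed. The order between genes depends on this length. In scr, PARP1 had the highest level, 32.9 ± 0.41 CPM per kb (SD, n = 3), ahead of DTX3L at 19.3 ± 4.14, PARP14 at 10.4 ± 2.21 and PARP10 at 6.05 ± 0.51. PARP2, PARP9 and PARP12 followed at 5.09 ± 0.25, 4.68 ± 0.97 and 4.59 ± 0.80, and neighbours among these last 3 overlapped. With shMPZL3 #1 the order was DTX3L at 39.5 ± 6.94, PARP14 at 23.8 ± 5.82, PARP1 at 22.4 ± 3.02, PARP10 at 15.5 ± 5.85, PARP9 at 12.1 ± 3.24, PARP12 at 10.1 ± 2.61 and PARP2 at 3.59 ± 0.41 CPM per kb. Each neighbouring pair from PARP14 down to PARP12 overlapped. With shMPZL3 #2, DTX3L at 40.9 ± 4.85 was again first, and PARP14 at 30.6 ± 4.86 and PARP1 at 30.5 ± 1.30 overlapped. PARP9, PARP10 and PARP12 stood at 15.6 ± 2.86, 13.9 ± 2.72 and 11.2 ± 0.78, and neighbours among these 3 overlapped. PARP9 did not overlap PARP1, nor PARP12 the last gene, PARP2, at 4.45 ± 0.52.

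Whether members moved by unequal amounts was asked with ratios within a library, which do not depend on scaling. The log2 ratio of PARP9 to DTX3L was -1.34, -1.63 and -1.33 in scr, -1.24, -1.18 and -0.93 with shMPZL3 #1, and -0.89, -0.86 and -0.62 with shMPZL3 #2. All 6 knockdown libraries lay above the controls, and the mean was higher by 0.48. The exact permutation p was 0.0238, and the adjusted p over 5 ratios was 0.119, so the ratio did not pass. For PARP14 to DTX3L the mean was higher by 0.31 (exact p = 0.0595, adjusted p = 0.149), with a knockdown mean of 0.25 ± 0.21 (SD, n = 6) and a control mean of -0.06 ± 0.08 (SD, n = 3). PARP10 to DTX3L, PARP12 to DTX3L and PARP2 to PARP1 differed by 0.17, 0.14 and -0.01, with adjusted exact p of 0.625, 0.357 and 0.929.

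**Figure D3:**
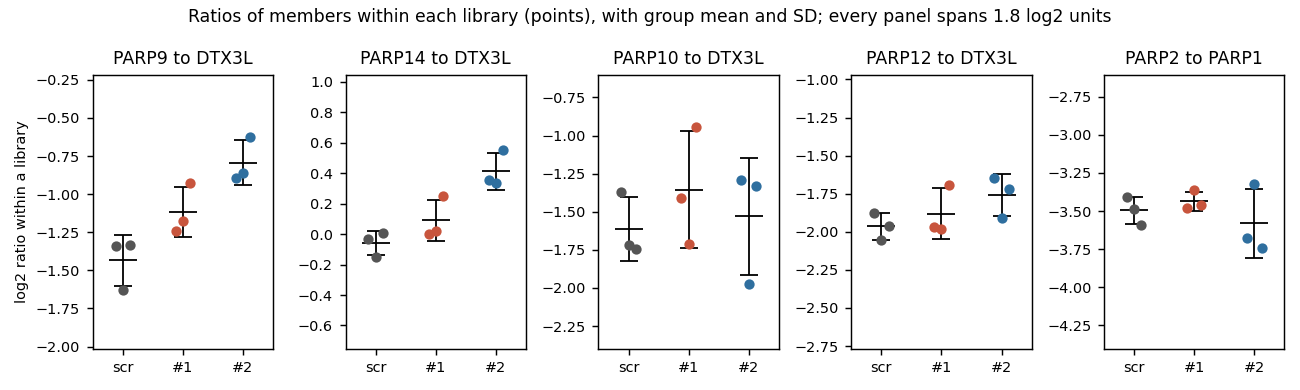
Log2 ratio of 2 members within each library (vertical axes, all spanning the same width), by group, with the mean and SD (n = 3). The ratio of PARP9 to DTX3L lies between -1.63 and -1.33 in scr and between -1.24 and -0.62 with knockdown.

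Near the chromosome 3 locus, none of the neighbours tested was called higher with shMPZL3 #2. Of 23 genes whose bodies reach within 500 kb of this locus, members included, 9 others had too few counts to be tested, among them PARP15, which lies between DTX3L and PARP14 and had 7 counts over all libraries. Of the 11 neighbours tested, 0 were called in either direction in the grouped comparison and 0 with shMPZL3 #2 by edgeR, with 2 and 1 lower at an unadjusted p under 0.05 and 0 higher. Over all genes, 9.36% were called higher and 6.40% lower in the grouped comparison, and 9.36% and 5.80% with shMPZL3 #2. Among so few genes, 0 calls do not set the neighbours apart from these shares. DESeq2 called 0 in the grouped comparison and 1, SEMA5B, lower with shMPZL3 #2. With shMPZL3 #1, 2 were called higher, beside 16.8% of all genes, and 5 lower, beside 15.3%. SEMA5B measured 9.30 CPM in scr, 24.9 with shMPZL3 #1 and 5.98 with shMPZL3 #2. It rose by 1.42 ± 0.21 with shMPZL3 #1 (adjusted p = 9.73e-05), its log2 value with shMPZL3 #2 was -0.63 ± 0.22 (adjusted p = 0.0592), and it was lower with shMPZL3 #2 than with shMPZL3 #1 by 2.05 ± 0.21 on the log2 scale (adjusted p = 1.3e-05). With shMPZL3 #1, DIRC2 rose by 0.37 ± 0.11 (adjusted p = 0.0128), while CCDC58, FAM162A, KPNA1, HSPBAP1 and PDIA5 fell by 0.37 to 0.59 on the log2 scale. KPNA1, an importin that carries proteins into the nucleus, is the tested gene next to PARP9, and it measured -0.39 ± 0.09 with shMPZL3 #1 (adjusted p = 0.00439) and -0.08 ± 0.09 with shMPZL3 #2 (adjusted p = 0.584). The shMPZL3 #1 calls of CCDC58, HSPBAP1, DIRC2 and PDIA5 were lost without at least 1 single library, for HSPBAP1 without scr replicate 1 (-0.48, adjusted p = 0.066) and for DIRC2 without scr replicate 2 (0.32, adjusted p = 0.0825).

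**Figure D4:**
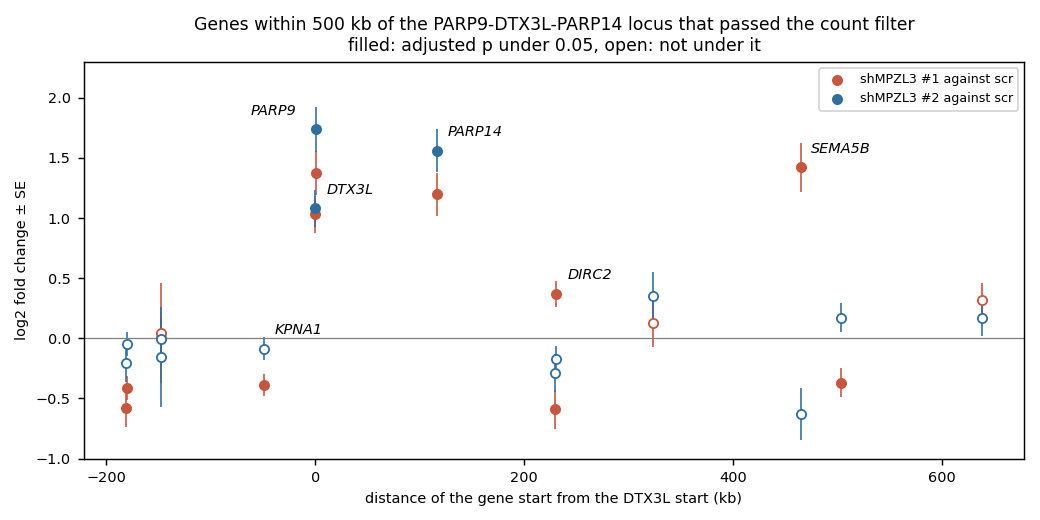
Log2 fold change with its SE (vertical axis) of the genes near the locus that passed the count filter, by the distance of their start from the DTX3L start in kb, for each shRNA. PARP9, DTX3L and PARP14 are filled, called, for both shRNAs; of the neighbours, SEMA5B is called at 1.42 with shMPZL3 #1.

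Beyond the members, 10 of 11 other ADP-ribosyltransferase genes were tested, and 4 of the 10 were called higher and 0 lower in the grouped comparison, where 9.36% of all genes were higher and 6.40% lower (0 lower at an unadjusted p under 0.05 in edgeR, and 0 by DESeq2, which called 5 higher), with a median log2 fold change of 0.39. PARP3, which acts in repair of double-strand breaks, rose by 1.24 ± 0.19 (adjusted p = 0.00155). PARP8 rose by 0.68 ± 0.14 (adjusted p = 0.00662) and PARP4, the vault particle PARP, by 0.36 ± 0.11 (adjusted p = 0.0373). PARP11 rose by 2.17 ± 0.53 (adjusted p = 0.0167), from 2 to 10 counts per library in scr to 15 to 49 with knockdown, so its fold change is imprecise. With the single hairpins PARP16 was called with shMPZL3 #1 at 0.59 ± 0.19 (adjusted p = 0.0232), and PARP6, ZC3HAV1 and TIPARP with shMPZL3 #2 at 0.64, 0.47 and 0.47. The tankyrases TNKS and TNKS2, whose grouped values were -0.09 and -0.06, were called in none of the comparisons. Without scr replicate 1 the grouped calls of PARP4, PARP8 and PARP11 were lost, at 0.27, 0.58 and 1.82 (adjusted p = 0.218, 0.0614 and 0.098), and PARP3 kept its call without any 1 library. The grouped call of PARP4 was also lost without scr replicate 2, scr replicate 3 or shMPZL3 #2 replicate 2 (0.39, 0.41 and 0.33, adjusted p = 0.106, 0.0751 and 0.0507), and that of PARP11 without scr replicate 3 (2.29, adjusted p = 0.0519). PARP16 lost its shMPZL3 #1 call without scr replicate 1, scr replicate 2 or shMPZL3 #1 replicate 3 (0.59, 0.51 and 0.54, adjusted p = 0.0646, 0.103 and 0.0749). With shMPZL3 #2, ZC3HAV1 lost its call without scr replicate 1 or shMPZL3 #2 replicate 3 (0.31 and 0.43, adjusted p = 0.118 and 0.0863), and TIPARP without any of the 3 scr libraries or shMPZL3 #2 replicate 2 or 3 (0.36 to 0.52, adjusted p = 0.0665 to 0.153).

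Interferon signalling genes were tested for all 16 reported here. In edgeR, 6 were called higher and 0 lower in the grouped comparison, with a median log2 fold change of 0.54 (0 lower at an unadjusted p under 0.05, and 0 by DESeq2, which called 7 higher), and 8 were higher with shMPZL3 #1 and 5 with shMPZL3 #2. Of all genes, 9.36% were called higher in the grouped comparison, 16.8% with shMPZL3 #1 and 9.36% with shMPZL3 #2. The share called lower in the grouped comparison was 6.40%. The transcription factor STAT2 was at 43.3 CPM in scr and at 71.5 CPM with knockdown, a rise of 0.73 ± 0.13 on the log2 scale (adjusted p = 0.00282, edgeR). IRF7, which switches on interferon genes, rose by 1.89 ± 0.43, by 1.14 ± 0.28 with shMPZL3 #1 and by 2.38 ± 0.28 with shMPZL3 #2. IRF1 rose by 0.87 ± 0.12 and USP18, an interferon-induced inhibitor of the receptor, by 1.12 ± 0.14. The receptor chain IFNGR1 rose by 0.69 ± 0.18 and the kinase JAK1 by 0.38 ± 0.11, and JAK2 and IFNLR1 were called with shMPZL3 #1, at 0.78 and 0.38. Without scr replicate 1 the grouped calls of IRF7, IFNGR1 and JAK1 were lost, at 1.68, 0.57 and 0.29 (adjusted p = 0.0857, 0.134 and 0.184), while STAT2, IRF1 and USP18 kept theirs without any 1 library. IFNGR1 also lost its grouped call without scr replicate 2 or 3 (0.74 and 0.75, adjusted p = 0.0645 and 0.0522) and JAK1 without scr replicate 2 (0.39, adjusted p = 0.1). IFNGR1 lost its shMPZL3 #2 call without any of 6 single libraries, the 3 of scr, shMPZL3 #1 replicate 3 and shMPZL3 #2 replicates 2 and 3 (0.31 to 0.53, adjusted p = 0.0512 to 0.222). IFNLR1 lost its shMPZL3 #1 call without any scr library or shMPZL3 #1 replicate 3 (0.31 to 0.40, adjusted p = 0.0549 to 0.111). IRF9, IFNAR2 and IL10RB overlap read-through genes and had 163, 394 and 130 counts in all, so their values are uncertain. Interferons themselves were at or near 0: of 9 ligand genes none was tested, IFNA1, IFNA2 and IFNG had 0 counts in every library, which allows up to 0.199 CPM in the smallest (3 counts, counting error only), IFNB1 had at most 1 count and IFNE, the highest, had 2 to 16 counts per library. The 1 called between the hairpins, IRF7, was higher with shMPZL3 #2, by 1.24 ± 0.26 (adjusted p = 0.00377).

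**Figure D5:**
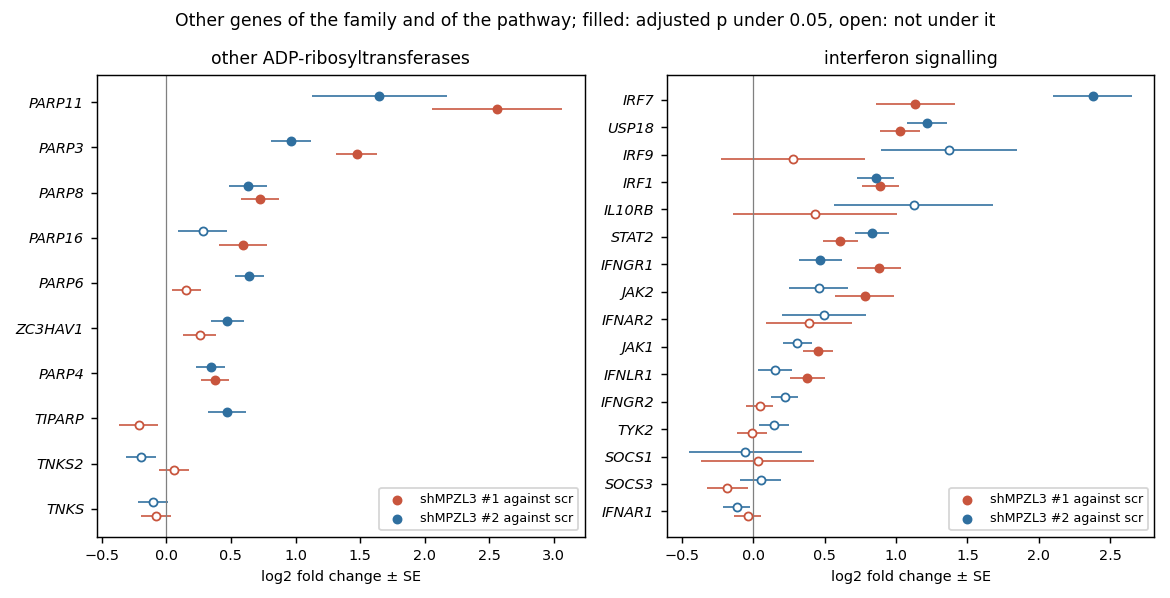
Log2 fold change with its SE (horizontal axes) of the other ADP-ribosyltransferase genes and of the interferon signalling genes that were tested, for each shRNA. Filled points passed an adjusted p under 0.05; IRF7 with shMPZL3 #2 reaches 2.38.

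Genes that handle the product and the substrate of the reaction were called one by one. Over all genes, 9.36% were called higher and 6.40% lower in the grouped comparison. The shares were 16.8% and 15.3% with shMPZL3 #1, and 9.36% and 5.80% with shMPZL3 #2. Of 6 genes that remove ADP-ribose, ADPRH alone was called in the grouped comparison, at 0.63 ± 0.19 (adjusted p = 0.0429), and MACROD1 was called lower with shMPZL3 #1 at -0.46 and higher with shMPZL3 #2 at 0.52. OTUB1 lies opposite MACROD1 over 3254 bases and had 17882 counts in all libraries against 1932 for MACROD1. The MACROD1 counts may therefore contain reads of OTUB1 or miss reads that fell on both. Of 7 repair partners of PARP1 and PARP2, the ligase LIG3 fell by 0.42 ± 0.13 (adjusted p = 0.0402), and HPF1, the cofactor for serine ADP-ribosylation, was at -0.37 ± 0.13 (adjusted p = 0.0672). APLF was called higher with shMPZL3 #1 at 0.69. Of 8 genes of NAD supply, NADSYN1 rose by 0.30 ± 0.09 (adjusted p = 0.0354), NMNAT1, NADK and NAPRT were called with shMPZL3 #1 at 0.40, 0.34 and -0.50, and NAMPT with shMPZL3 #2 at 0.35. Of 4 other Deltex ligases none was called in the grouped comparison, and DTX2 was called with shMPZL3 #2 at 0.46 ± 0.13 (adjusted p = 0.0272), while DESeq2 called 1 of the 4 in the grouped comparison. The grouped calls of ADPRH, LIG3 and NADSYN1 did not stand without scr replicate 1, at 0.38, -0.43 and 0.24 (adjusted p = 0.211, 0.139 and 0.208), nor without some other single libraries, and those of MACROD1, APLF, NMNAT1, NADK, NAPRT, NAMPT and DTX2 with single hairpins were each lost without at least 2 of the single libraries.

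The 5 interferon-linked members also had neighbours in pattern, measured as the root mean square difference of centred log2 CPM over the 9 libraries, among 13648 protein-coding genes tested and reported here. For PARP9 the nearest was PARP14, at 0.09, then IFIT5 and ADM. For PARP14 they were ADM, PARP9 and GADD45A, at 0.08, 0.09 and 0.12. DTX3L was nearest to PSMB8, SP100 and ANKRD1, at 0.10 to 0.11, and its locus partners PARP14 and PARP9 ranked 102 and 370. Seen from PARP9, at the same difference of 0.29, DTX3L ranked 48. Seen from PARP14, at 0.22, it ranked 26. PARP12 was nearest to CDKN1A, at 0.11, then GAS6 and ZNFX1. PARP10 had no gene closer than 0.15 and was nearest to IFFO2, KRT17 and LGALS3BP. All 15 nearest genes were the same with a prior count of 0.5.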

How the data were processed

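RNA-seq of poly-A selected, non-directional libraries was analysed for 9 OVCAR4 libraries, with groups and replicate numbers from the labels. The authors deposited raw read counts per gene, with no normalization or pooling, and the length of each gene, which equals the merged exon length of GENCODE release 29 for all 58735 genes. The submitters' processing notes name HISAT2 2.0.5, featureCounts 1.5.0-p3 and hg38.

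Counts were filtered with filterByExpr (16928 genes, 99.8% to 99.9% of counts), scaled by TMM (factors 0.983 to 1.03) and tested two-sided with edgeR 4.0.16 (limma 3.58.1, R 4.3.3), with Benjamini-Hochberg adjustment over all genes tested. The grouped fit took the 6 knockdown libraries as 1 condition, and 1 fit of the 3 groups gave each shRNA and their difference. Each SE was the absolute log2 fold change divided by the square root of the F statistic of edgeR's test. Log2 CPM was computed with 2 as the prior count. The exact permutation tests were two-sided, with a smallest p of 0.0119 for 6 against 3 and 0.1 for 3 against 3. The count test was checked on simulated counts. Python 3.11.15 (pandas 2.3.3, numpy 2.4.6, matplotlib 3.10.9) made the tables.

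All members are named. Of each other list except the cell type markers, which serve only to check the cell type with no test, the genes called in the grouped or either single comparison are named, with neighbours of the locus within 500 kb that passed the filter, and others only as examples. A gene of the interferon signalling list and a nearest gene by pattern are not reported here, though all fits include them. The members and lists were chosen with earlier results of these data known. TNKS, TNKS2, HPF1, IRF9, IFNAR2, IL10RB and the interferon ligands other than IFNE were named after their values were seen. The alternatives were RLE and upper-quartile scaling, DESeq2 1.42.0, no filter, a minimum of 10 counts per library, protein-coding genes only, a replicate block, the mean of both shRNAs in the 3-group fit, other prior counts and leaving out each library. Replicates are described as biological, and no 2 replicates agreed within counting noise. Their p-values measure the spread between these samples.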

Additional observations from a re-analysis of the deposited data

Results flagged for a closer look

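PARP1 differed between the hairpins by the direct test: the shMPZL3 #2 minus shMPZL3 #1 log2 difference was 0.45 ± 0.10 (SE, adjusted p = 0.00719, edgeR's quasi-likelihood test), from 218 ± 9.31 CPM and 160 ± 21.6 CPM (SD, n = 3 each). All 3 shMPZL3 #2 libraries were above all 3 shMPZL3 #1 libraries. Over the alternatives the difference was 0.38 to 0.55, with adjusted p from 0.000707 to 0.0425.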

How the results depend on the processing

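The count of members called higher in the grouped comparison was 5 under every alternative, and of members called with shMPZL3 #2 5. With shMPZL3 #1 it was 6 to 7 over the fits that leave out 1 library. Members called lower in the grouped comparison were 0 in the fit as reported, 2 when both shRNA coefficients of the 3-group fit were averaged (PARP1 and PARP2, adjusted p = 0.00926 and 0.0350), and 0 to 1 without 1 library, with PARP2 the one without shMPZL3 #2 replicate 2 (adjusted p = 0.0378). Between the shRNAs, 1 member was called as reported, 3 with no filter and 3 with the replicate block, and 1 without any 1 library. The added members were PARP9 and PARP14, at 0.38 each with the replicate block (adjusted p = 0.00314 and 0.00218) and at 0.36 each with no filter (adjusted p = 0.0182 and 0.0139). Of 9 pairs of same-numbered libraries, 3 had correlated deviations over 0.1 (range -0.00143 to 0.218). Pairing was taken as shown only if every pair was over 0.1, so it was not shown. As a hint from the data, not the design, a library was nearest to its own number in 13 of 18 cases. PARP9, PARP14 and PARP12 also rose from replicate 1 to replicate 3 within every group. The main tests, which treat the libraries as unpaired, take no account of this. The block changed no other call of the members or of the named genes. The cause of these shifts was not tested.

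Direction between the hairpins reversed for PARP10 without shMPZL3 #1 replicate 3 (0.19, range -0.34 to 0.19 over all left-out libraries), PARP12 without shMPZL3 #1 replicate 1 (-0.034, range -0.034 to 0.35), and DTX3L without shMPZL3 #1 replicate 1 (-0.098) or shMPZL3 #2 replicate 2 (-0.015), range -0.098 to 0.13. The PARP2 to PARP1 ratio reversed without scr replicate 1 (0.030), shMPZL3 #2 replicate 1 (0.021) and shMPZL3 #2 replicate 3 (0.034), with a range of -0.059 to 0.034. None of these had passed. The count of ratios past the threshold was 0 in every setting, and members apart between groups numbered 6 to 7 without 1 library. Over all genes, calls in the grouped comparison fell from 1584 higher and 1083 lower to 453 and 172 without scr replicate 1, and were 2479 and 2198 with the averaged coefficients. Of the other named genes' alternatives, 855 kept their call and 116 lost it.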
